A study of Mus musculus with 12 samples.

Results

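The 45 genes described here encode the machinery that licenses DNA replication origins and copies DNA at the fork. They were chosen by symbol from a fixed list, and all 45 were found among the 24982 gene symbols of each file. RNA had been sequenced from B lymphocytes of the spleens of mice aged 6 weeks, with 4 biological replicates in each of 3 genotypes. WT mice, named as C57BL/J6 in the study's design, carried no transgene. Eμ-Myc mice carried a Myc transgene driven by the immunoglobulin heavy-chain enhancer, which acts in the B lineage. Eμ-Myc; PRPS2 KO mice carried the same transgene and lacked PRPS2, 1 form of phosphoribosyl pyrophosphate synthetase, whose product feeds nucleotide synthesis, and are called the knockout group here. The labels did not give sex, disease stage or how the B cells were purified, so the libraries describe whatever cells the isolation kept.

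Replication starts in 2 steps that the cell keeps apart. In G1 the origin recognition complex (ORC), with CDC6 and CDT1, loads the ring-shaped MCM2-7 helicase onto DNA, and in S phase kinases and the factors CDC45 and GINS switch that helicase on. Polymerase α-primase then lays primers, polymerases ε and δ extend the strands, RFC loads the PCNA clamp, FEN1 and LIG1 join Okazaki fragments, and RPA covers exposed single strands. Many of these genes are textbook targets of E2F factors and are transcribed mainly in cells that are cycling, whereas resting splenic B cells make little of them.

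The deposited value of a gene is a coverage, a signal with 1 decimal that is not a read count. Each value below is that coverage after scaling between libraries (scaled coverage), given with the SD over the 4 libraries of a group where a mean is printed. Whether coverage had been divided by gene length is not given in the sources used here, so levels are compared between groups within a gene and not between genes. Fold changes are on the log2(scaled coverage + 0.5) scale from limma, and a gene is called when its adjusted p over all tested genes is under 0.05. The summed coverage of a library ran from 1277305.5 to 1885768.9, with 14900 to 16231 genes above 0, and the reads behind a value are unknown. Prps2 followed its labels, with 18.3, 17.0, 17.1 and 16.2 in knockout libraries 1 to 4 against means of 125 ± 19.8 in WT and 246 ± 36.5 in Eμ-Myc. Myc averaged 272 ± 52.8 in WT and 1915 ± 311 in Eμ-Myc, and was 1099, 1718, 3017 and 3282 in knockout libraries 1 to 4.

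The libraries stood apart in ways the genotype does not give. All 8 B cell markers were above 1 in every library. Their sum was 6794, 12816, 10825 and 6545 in WT libraries 1 to 4. It lay between 7802 and 9543 in Eμ-Myc and between 7189 and 7812 in the knockout group. The summed level of 9 myeloid markers was 25229, 8420, 8424 and 14644 in WT libraries 1 to 4, and WT library 1 was the highest of all libraries. Most of that sum was S100a8 and S100a9, at 5480 and 13863 in WT library 1. Csf1r and Adgre1 were highest in knockout library 1 and Mpo in Eμ-Myc library 2, while the other myeloid markers were highest in WT library 1. The summed level of 9 T cell markers was 1192, 625, 821 and 3696 in WT libraries 1 to 4, between 133 and 189 in Eμ-Myc, and 772, 888, 37.7 and 34.3 in knockout libraries 1 to 4. Knockout libraries 1 and 2 were thus nearer to WT in this respect, and knockout libraries 3 and 4 were below all others. Knockout libraries 3 and 4 were also the closest pair of libraries within any group, with an SD of their log2 ratio of 0.14 over 7782 genes, and without counts it cannot be tested whether they differ by more than sampling noise.

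Promoter windows are shown for 4 genes that mark the range of the response: Mcm3 and Cdc6, which rose steeply, and Orc6 and Orc4, the ORC subunits with the clearest and the weakest change. Each window is 300 bases on build GRCm38.p6 from RefSeq, 250 before the listed start and 50 after it, written 5′ to 3′ along the gene's strand. Mcm3 lies at chr1:20820263-20820562 on the minus strand, Cdc6 at chr11:98907901-98908200 on the plus strand, Orc6 at chr8:85299382-85299681 on the plus strand, and Orc4 at chr2:48950032-48950331 on the minus strand. Capitals mark matches to the E2F-type letters TTTCGCGC, TTTGGCGC, TTTCCCGC or TTTGCCGC on either strand.
Mcm3: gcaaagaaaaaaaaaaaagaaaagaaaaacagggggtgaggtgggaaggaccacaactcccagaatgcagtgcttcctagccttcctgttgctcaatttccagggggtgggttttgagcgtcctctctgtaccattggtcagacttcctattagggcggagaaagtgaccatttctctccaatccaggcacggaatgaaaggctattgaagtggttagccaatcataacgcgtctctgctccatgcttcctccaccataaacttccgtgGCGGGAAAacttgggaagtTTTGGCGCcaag
Cdc6: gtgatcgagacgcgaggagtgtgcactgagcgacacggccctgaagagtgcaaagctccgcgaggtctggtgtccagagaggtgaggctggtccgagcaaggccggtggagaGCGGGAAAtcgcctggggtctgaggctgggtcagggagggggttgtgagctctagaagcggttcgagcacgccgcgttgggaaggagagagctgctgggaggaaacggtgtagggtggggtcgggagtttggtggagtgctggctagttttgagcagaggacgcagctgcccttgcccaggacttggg
Orc6: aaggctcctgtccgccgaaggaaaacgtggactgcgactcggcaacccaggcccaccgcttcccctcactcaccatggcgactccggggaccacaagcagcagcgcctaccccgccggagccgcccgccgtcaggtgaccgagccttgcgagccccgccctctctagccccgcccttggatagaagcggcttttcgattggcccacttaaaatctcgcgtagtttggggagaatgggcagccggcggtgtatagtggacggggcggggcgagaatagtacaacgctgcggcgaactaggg
Orc4: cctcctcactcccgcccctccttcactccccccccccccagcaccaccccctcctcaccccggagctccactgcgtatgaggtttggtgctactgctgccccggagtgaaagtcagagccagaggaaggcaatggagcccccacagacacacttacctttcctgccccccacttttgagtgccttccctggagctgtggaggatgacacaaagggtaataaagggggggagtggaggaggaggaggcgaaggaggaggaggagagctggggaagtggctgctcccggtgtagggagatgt

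The Mcm3 window held 2 matches, GCGGGAAA beginning 20 bases after the start and TTTGGCGC beginning 39 bases after it. The Cdc6 window held GCGGGAAA beginning 138 bases before the start. The Orc6 and Orc4 windows held none of these letters. The promoter table held 37 of the 45 genes, without Gins1, Tipin, Gins2, Rfc2, Mcm4, Gins4, Prim2 and Pole. An E2F-type match was present in 14 of the 37 windows (37.8%), against 626 of 27025 windows over all genes in the table (2.32%). The 14 were Orc1, Orc3, Cdc6, Cdt1, Mcm3, Mcm5, Mcm6, Mcm7, Gins3, Pola1, Pole2, Pold1, Pold3 and Rfc3, and so included 4 of the 5 MCM2-7 genes in the table. The E-box letters CACGTG, which MYC-MAX dimers are known to bind, were present in 4 of the 37 (10.8%; Pola2, Rfc1, Lig1 and Rpa1), against 7.24% of all windows. No window of the 37 held both kinds. A match is a description of these letters in this window, not a site or a cause.

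The first comparison asks what the Myc transgene does to these genes in B cells that still have PRPS2. In Eμ-Myc, 44 of the 45 genes were called higher than in WT and none was called lower, while 30.4% of the 12723 genes tested were called higher and 24.7% were called lower. Their median log2 fold change was 1.83, or 3.55-fold, against -0.01 over all genes tested, and 35 of the 45 at least doubled. The increases ran from 0.52 for Orc3 to 3.35 for Mcm10, and Orc4 was the 1 gene that did not pass. All 4 Eμ-Myc libraries lay above all 4 WT libraries for the same number of genes, 44 of 45, where 28.7% of all tested genes had that order. All 45 genes passed the filter on low values.

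**Figure D1:**
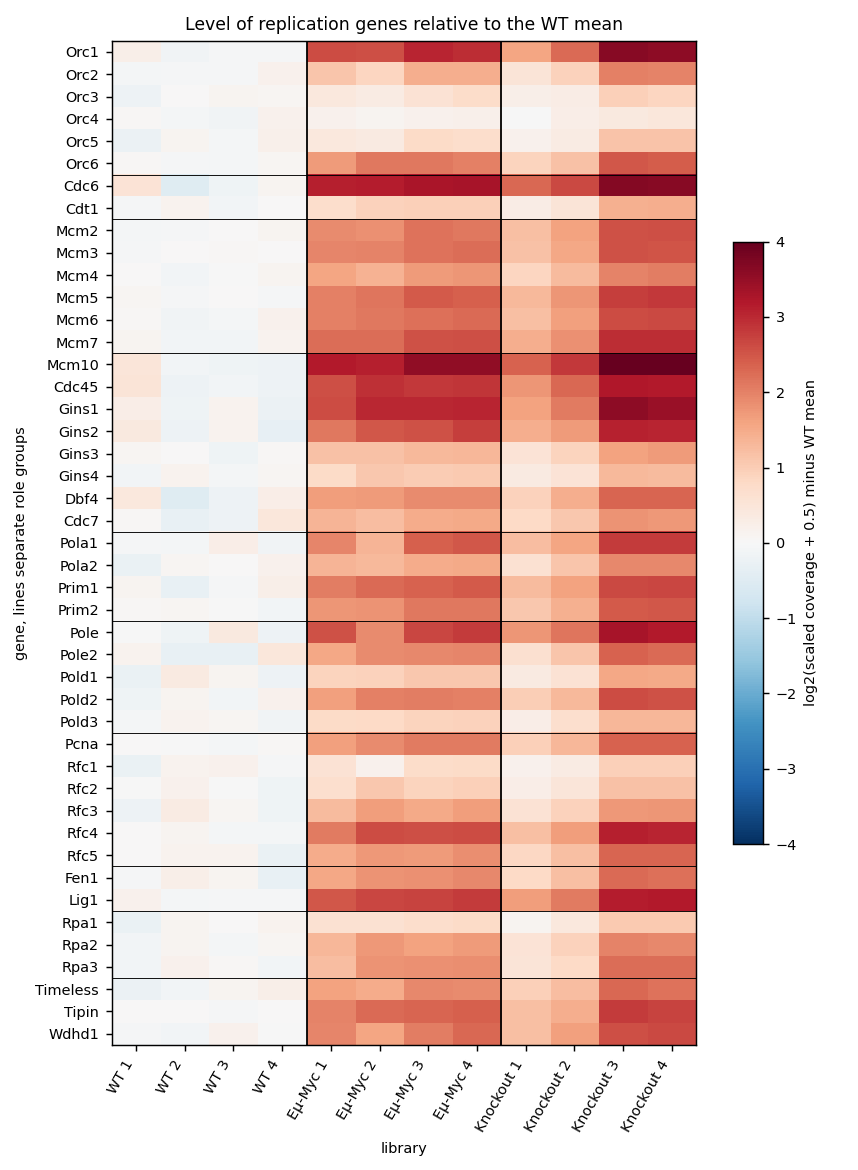
Level of each replication gene in each of the 12 libraries, as log2(scaled coverage + 0.5) minus the WT mean of that gene, with red above and blue below the WT mean. The Eμ-Myc columns are red in nearly every gene with Orc4 palest, and knockout libraries 1 and 2 are paler than Eμ-Myc while libraries 3 and 4 are darker.

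Among the subunits of ORC, which marks origins, 5 of 6 rose, with a median log2 fold change of 0.89. Orc6 was 72.6, 67.9, 65.5 and 72.9 in WT libraries 1 to 4 and 229, 299, 301 and 281 in Eμ-Myc libraries 1 to 4. The lowest Eμ-Myc library was far above the highest WT library, and Orc6 rose by 1.98 on the log2 scale (SE 0.11, adjusted p 2.37e-06 in limma). Orc1, the ATPase subunit whose level is known to follow the cell cycle, was close to the filter's minimum of 1 in WT, at 1.73, 1.22, 1.32 and 1.34, and reached 11.1, 10.8, 15.0 and 14.2 in Eμ-Myc. Its log2 fold change of 2.80 was the largest in the complex. Orc4 was 92.9, 86.0, 82.9 and 102 in WT and 102, 97.6, 103 and 105 in Eμ-Myc. The Orc4 groups overlapped, and the log2 fold change of 0.17 (SE 0.09, 95% interval -0.04 to 0.38, adjusted p 0.156) did not pass. Orc2, Orc3 and Orc5 rose by 1.22, 0.52 and 0.57.

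The loaders CDC6 and CDT1 bring the helicase to ORC, and their genes rose to different extents. Cdc6 was 23.2, 11.2, 13.8 and 17.1 in WT libraries 1 to 4 and 141, 143, 157 and 158 in Eμ-Myc. No library of the groups overlapped, and Cdc6 rose by a log2 fold change of 3.20 (SE 0.20, adjusted p 3.44e-06). Cdt1 was 52.7, 60.1, 50.6 and 55.8 in WT and 90.0, 105, 107 and 106 in Eμ-Myc. It too separated the groups completely, with a smaller log2 fold change of 0.89 (SE 0.10, adjusted p 7.98e-05).

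All 6 genes of the MCM2-7 helicase, the ring that unwinds DNA, rose, with log2 fold changes from 1.61 to 2.40. Mcm3 was 60.6, 63.0, 64.6 and 63.0 in WT and 244, 250, 287 and 295 in Eμ-Myc. The WT libraries were nearly level and every Eμ-Myc library was well above them, for a log2 fold change of 2.09 (SE 0.09, adjusted p 1.52e-06). Mcm4, with the weakest evidence in the ring, was 53.6, 48.8, 51.8 and 57.5 in WT and 160, 140, 174 and 180 in Eμ-Myc. The groups stayed apart, with a log2 fold change of 1.61 (SE 0.11, adjusted p 4.87e-06). Mcm2, Mcm5, Mcm6 and Mcm7 rose by 2.00, 2.25, 2.14 and 2.40.

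The 8 genes that switch the helicase on all rose, with a median log2 fold change of 2.13 and the largest fold change of the 45 genes, that of Mcm10, among them. Gins1, a subunit of the GINS complex that binds the active helicase, was 21.0, 15.5, 19.2 and 14.8 in WT and 110, 145, 144 and 148 in Eμ-Myc. Eμ-Myc library 1 was lower than its 3 fellows yet above every WT library, and the log2 fold change was 2.93 (SE 0.15, adjusted p 1.73e-06). Cdc7, the kinase that phosphorylates the MCM ring, was 60.8, 46.9, 50.2 and 80.2 in WT and 149, 139, 165 and 167 in Eμ-Myc. WT library 4 was the highest of its group and still below Eμ-Myc, for a log2 fold change of 1.40 (SE 0.16, adjusted p 1.05e-04). Dbf4, the regulatory partner of CDC7, rose by 1.79. Mcm10 and Cdc45, firing factors of the active helicase, rose by 3.35 and 2.79. The other GINS genes rose unequally, by 2.47 for Gins2, 1.24 for Gins3 and 0.98 for Gins4.

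Polymerase α-primase makes the primers of both strands, and its 4 genes rose by log2 fold changes from 1.41 to 2.28. Prim1, the catalytic primase subunit, was 28.0, 20.8, 24.9 and 30.3 in WT and 109, 127, 134 and 142 in Eμ-Myc. All Eμ-Myc libraries were above WT, and the log2 fold change was 2.28 (SE 0.14, adjusted p 3.16e-06). Pola1, the catalytic polymerase subunit, was 9.81, 9.47, 12.1 and 9.17 in WT and 40.3, 26.9, 55.2 and 58.7 in Eμ-Myc. Eμ-Myc library 2 was the lowest of a wide group, which still cleared WT, and the log2 fold change was 2.05 (SE 0.24, adjusted p 9.19e-05). Prim2 and Pola2, the accessory subunits, rose by 1.95 and 1.41.

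The bulk polymerases ε and δ, which extend the leading and the lagging strand, rose in all 5 genes listed. Pold2, an accessory subunit of polymerase δ, was 70.5, 84.7, 74.0 and 88.9 in WT and 246, 319, 327 and 320 in Eμ-Myc. The groups were apart, and Pold2 rose by 1.92 on the log2 scale (SE 0.13, adjusted p 4.52e-06). Pold1, the catalytic subunit, was 51.6, 78.6, 66.7 and 53.9 in WT and 115, 117, 131 and 132 in Eμ-Myc. The spread of WT was wider here, the groups were still apart, and the log2 fold change was 0.99 (SE 0.14, adjusted p 3.37e-04). Pold3, another accessory subunit, rose by 0.84. Pole, the catalytic subunit of polymerase ε, rose by 2.48 and its partner Pole2 by 1.83.

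The PCNA clamp holds polymerases on DNA, and the 5 RFC subunits load it. Pcna rose by a log2 fold change of 1.92, from a mean of 202 ± 7.47 in WT to 772 ± 102 in Eμ-Myc. Rfc4 was 26.9, 29.0, 25.2 and 25.4 in WT and 115, 165, 162 and 165 in Eμ-Myc. Eμ-Myc library 1 was again the lowest of its group, above all of WT, and the log2 fold change was 2.48 (SE 0.13, adjusted p 2.22e-06). Rfc1, the large subunit, was 123, 161, 165 and 142 in WT and 220, 167, 247 and 248 in Eμ-Myc. Eμ-Myc library 2 exceeded the highest WT library only narrowly, and the log2 fold change was 0.57 (SE 0.15, adjusted p 0.0105). Rfc2, Rfc3 and Rfc5 rose by 0.89, 1.52 and 1.71.

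Both genes of Okazaki fragment maturation rose. Lig1, the ligase that seals the fragments, had the smallest adjusted p of the 45 genes. It was 89.0, 75.1, 75.8 and 76.7 in WT and 446, 503, 520 and 549 in Eμ-Myc, with WT library 1 above its group and no overlap. Its log2 fold change was 2.66 (SE 0.10, adjusted p 1.30e-06). Fen1, the nuclease that trims flaps, was 123, 149, 139 and 105 in WT and 371, 450, 460 and 481 in Eμ-Myc. It kept the groups apart at a log2 fold change of 1.78 (SE 0.13, adjusted p 8.45e-06).

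RPA, the 3-subunit protein that coats single strands, rose in all its genes, by a median log2 fold change of 1.59. Rpa2 was 43.3, 50.4, 44.5 and 49.4 in WT and 117, 156, 143 and 155 in Eμ-Myc. The groups were apart, at a log2 fold change of 1.59 (SE 0.12, adjusted p 7.41e-06). Rpa1, the large subunit, was 191, 245, 231 and 255 in WT and 352, 353, 374 and 387 in Eμ-Myc. Its rise was smaller than those of Rpa2 and Rpa3 in size, at 0.67 (SE 0.11, adjusted p 7.13e-04) against 1.59 and 1.67, and its groups did not overlap either.

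TIMELESS and TIPIN travel with the fork and stabilise it, and WDHD1 links the helicase to polymerase α. Tipin was 148, 148, 144 and 149 in WT and 587, 705, 743 and 771 in Eμ-Myc. The WT libraries were almost identical, all Eμ-Myc libraries were far above them, and the log2 fold change was 2.24 (SE 0.10, adjusted p 1.52e-06). Timeless was 46.0, 50.5, 58.6 and 64.0 in WT and 166, 153, 207 and 204 in Eμ-Myc, with no overlap and a log2 fold change of 1.73 (SE 0.14, adjusted p 1.38e-05). Wdhd1 rose by 1.97.

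**Figure D2:**
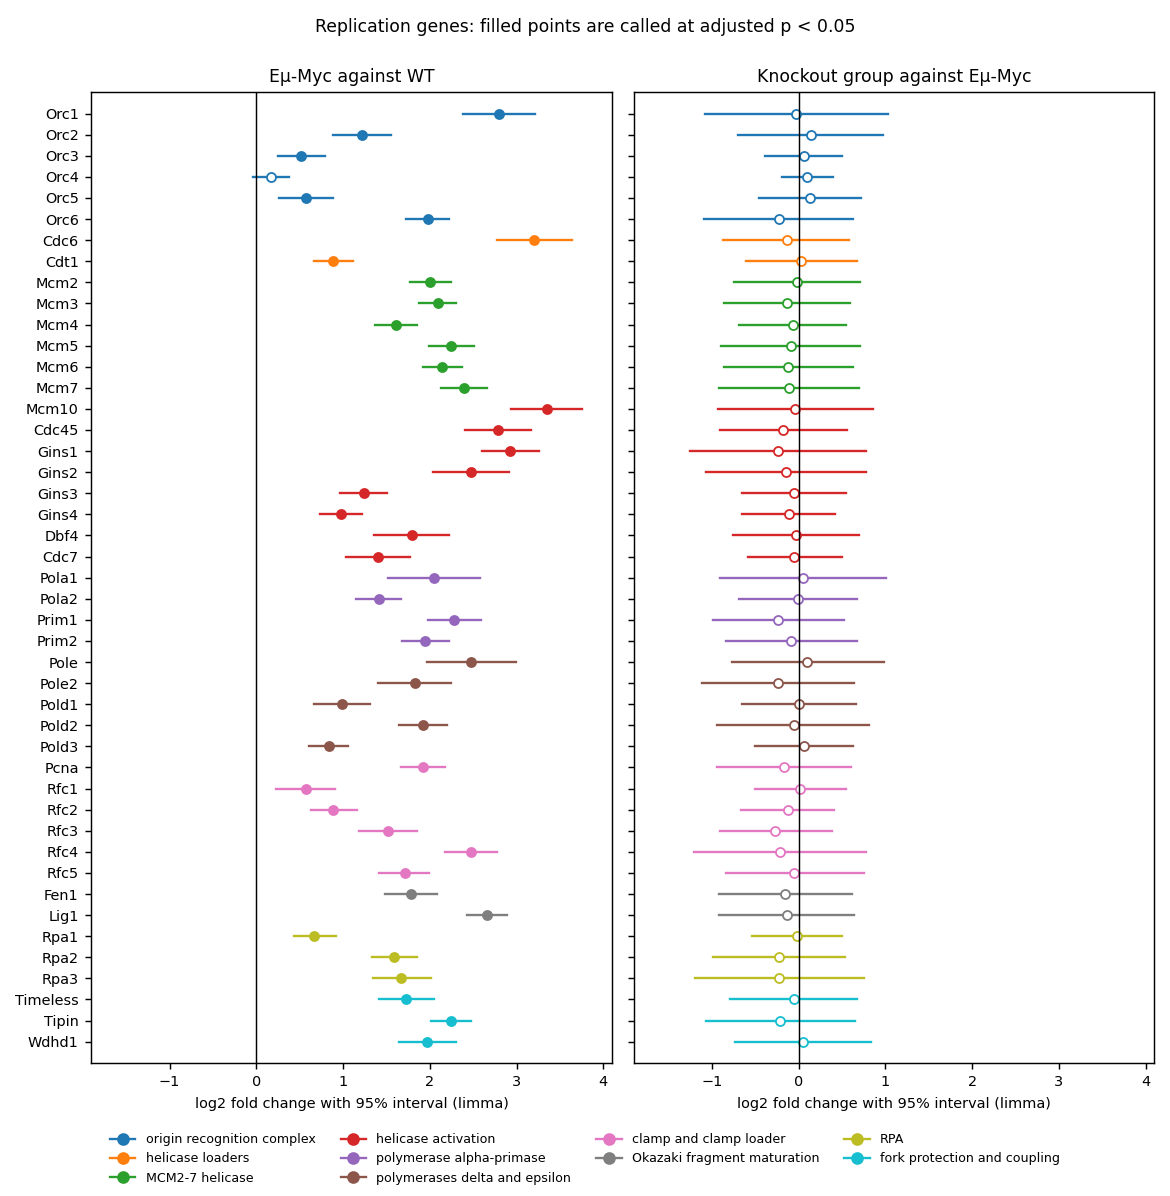
Log2 fold change of each replication gene with its 95% interval from limma, on the left for Eμ-Myc against WT and on the right for the knockout group against Eμ-Myc, colored by role, with filled points called at adjusted p under 0.05. All points but Orc4 are filled on the left, and every point on the right is open with an interval that includes 0.

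Leaving out any 1 of the 8 libraries left 44 genes called higher, beside 26.3% to 30.4% of all genes. Scaling by total coverage moved the median of all genes to -0.19 and that of the replication genes to 1.65. It ended the calls of Orc3, Orc5 and Rfc1, for a count of 41, beside 24.1% of all genes called higher. Orc4 was -0.02 under that scaling and was called higher, at 0.25 (adjusted p 0.00858), with library quality weights. In the GENCODE basic annotation, the exons of Cdc45, Fen1, Gins2, Lig1, Mcm7, Orc2, Orc4, Orc6, Rfc2, Rfc4 and Rfc5 overlap those of a gene on the opposite strand. Those of Orc5 overlap Gm15421 on the same strand. The kit was directional per the labels, but whether counting used the strand is not given in the sources used here, so reads of the partner genes may be part of these values.

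Markers of T and NK cells and of cycling moved with this comparison. None of the 9 myeloid and none of the 9 erythroid markers was called, at median log2 fold changes of -0.38 and 0.08. The missing calls do not show these markers equal. All 9 T cell markers and all 7 NK cell markers were called lower in Eμ-Myc, with summed T cell levels of 625 to 3696 in WT and 133 to 189 in Eμ-Myc. The NK cell markers summed to between 346 and 1478 in WT and between 94.3 and 245 in Eμ-Myc. None of the 8 B cell markers was called higher and 1 was called lower. The B lineage differed in other genes. Of 6 early B cell genes tested, Rag1, Rag2, Vpreb1 and Igll1 were called higher, at log2 fold changes of 3.01, 3.53, 2.09 and 2.48. Rag2 was under the filter's minimum of 1 in every WT library (0.188 to 0.469). Vpreb1 and Igll1 exceeded it in WT library 4 only (1.34 and 1.23). Rag2, Vpreb1 and Igll1 thus passed the filter through Eμ-Myc, and the sizes of their fold changes depend on the added 0.5. Il7r was called lower at -2.39, but T cells also express it, so its fall is not assigned to the B lineage. Of 5 plasma cell genes, Xbp1 and Prdm1 were called lower, at -0.56 and -1.08. All 12 genes of G2 and mitosis were called higher, with a summed level of 142 to 313 in WT and 1314 to 1840 in Eμ-Myc. The part of cell composition and of cell cycle position in the replication gene results was not tested. In bulk RNA, fewer cells of a type and less RNA per cell cannot be told apart, and the same holds for more cycling cells and more transcript in each.

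A wider list of 35 other replication genes moved in the same direction for the most part, with 30 called higher, 1 called lower and 4 not called, and a median log2 fold change of 1.63. The 3 with the smallest adjusted p were Pclaf, a PCNA-binding factor, at 3.29 (SE 0.16, adjusted p 1.68e-06), Dtl, which directs CDT1 to degradation, at 2.99 (SE 0.16, adjusted p 2.24e-06), and Chaf1a, a subunit of the chromatin assembly factor that follows the fork, at 2.71 (SE 0.15, adjusted p 2.33e-06). Pclaf went from 26.4 to 43.1 over the WT libraries to 267 to 347 over the Eμ-Myc libraries. The gene called lower was Pold4, the smallest subunit of polymerase δ, which was 400, 595, 488 and 348 in WT and 287, 375, 239 and 275 in Eμ-Myc. The Pold4 groups overlapped, in Eμ-Myc library 2 and WT library 4, and its log2 fold change was -0.63 (SE 0.19, adjusted p 0.0183), opposite in sign to Pold1, Pold2 and Pold3. Donson, a replication initiation factor, was 31.6, 34.7, 35.7 and 35.3 in WT and 30.9, 27.2, 27.7 and 29.2 in Eμ-Myc. Every Eμ-Myc library of Donson lay below every WT library, at a log2 fold change of -0.25 (SE 0.10, adjusted p 0.0540) that narrowly missed the threshold.

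Because members of 1 complex rose by different amounts, each subunit's share of the summed coverage of its complex was also compared. A share does not depend on the scaling between libraries, but it is not a molar ratio, since length may enter coverage. Of 31 shares in 7 complexes, 24 differed between Eμ-Myc and WT in an exact two-sided permutation test over 70 arrangements, 12 higher and 12 lower. Each of the 24 had p = 0.0286 in that exact test, the smallest the design allows, and 0.0369 after Benjamini-Hochberg adjustment over the 31. The shares of a complex sum to 100%, so its subunits are not independent. These shares restate the unequal fold changes above on the same values, and are no independent evidence for them.

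In ORC, the share of Orc6 was 25.2%, 23.5%, 23.1% and 22.4% in WT libraries 1 to 4 and 39.8%, 48.8%, 42.6% and 40.6% in Eμ-Myc. The share of Orc4 went the other way, from 30.6% ± 1.40 to 15.8% ± 1.33 (SD, n = 4 each). Orc1 went from 0.474% ± 0.0860 to 1.97% ± 0.154. In GINS, Gins4 held 48.5%, 59.6%, 52.3% and 59.5% in WT and 30.3%, 29.8%, 28.7% and 28.0% in Eμ-Myc, while Gins1 went from 20.4% ± 2.99 to 42.7% ± 0.776.

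Of the coverage of the clamp loader genes, Rfc1 held 40.6% ± 2.89 in WT and 27.4% ± 4.69 in Eμ-Myc. The small subunit genes Rfc3, Rfc4 and Rfc5 gained, from 10.1% ± 0.830 to 13.1% ± 0.900, from 7.35% ± 0.634 to 18.7% ± 1.65 and from 8.39% ± 0.709 to 12.5% ± 0.367. In RPA, the large subunit gene Rpa1 went from 67.1% ± 2.14 to 51.0% ± 3.65. In polymerase δ, Pold2 went from 44.6% ± 4.29 to 61.4% ± 2.34. The MCM2-7 ring moved least, with the largest shifts for Mcm7, from 32.7% ± 1.44 to 37.5% ± 0.564, and Mcm4, from 9.24% ± 0.195 to 6.19% ± 0.407. The shares of Mcm3, Mcm5, Mcm6, Orc2, Pola1, Prim2 and Rfc2 did not pass, with Rfc2 at p = 0.0571 in the exact test (adjusted 0.0709), and this does not show them equal.

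**Figure D3:**
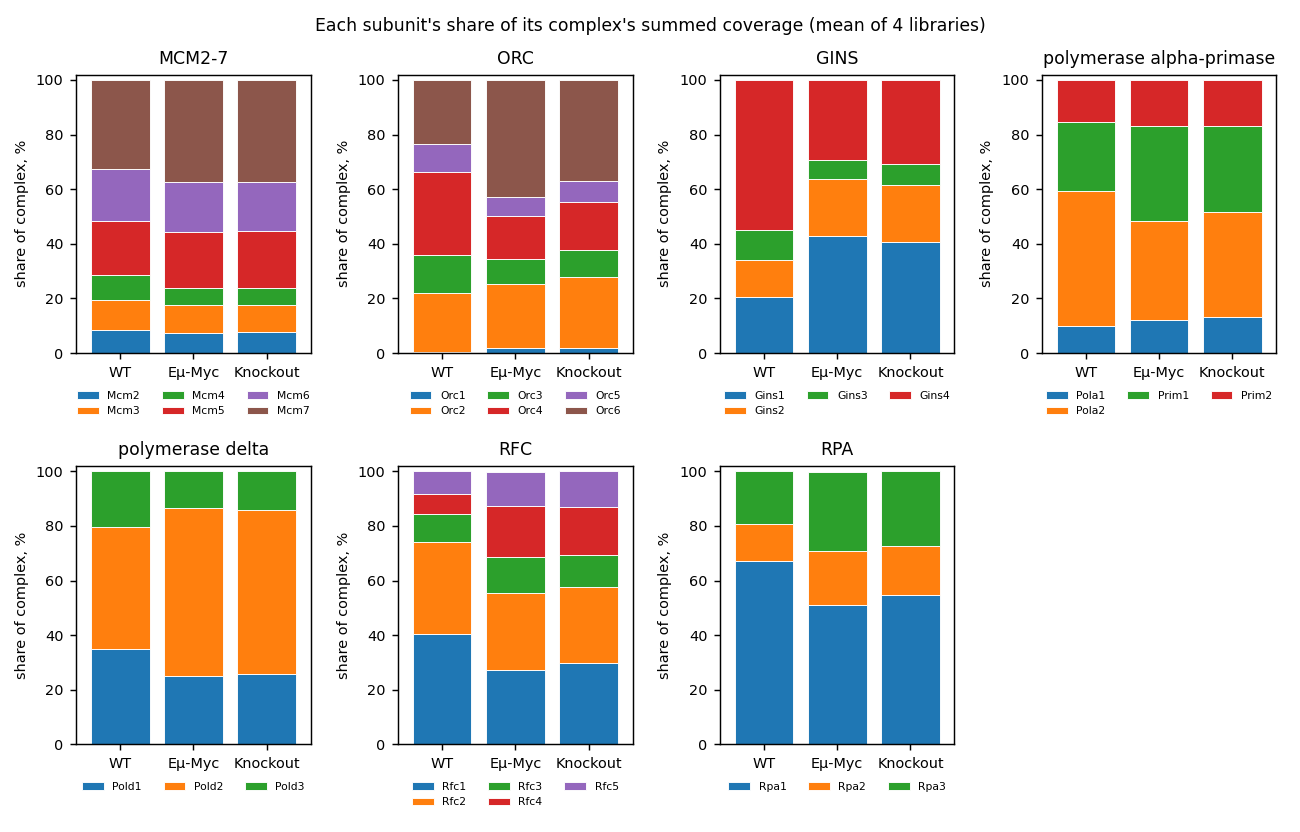
Share of each subunit in the summed coverage of its complex, in percent, as stacked bars that give the mean over the 4 libraries of WT, Eμ-Myc and the knockout group for 7 complexes. The Orc6, Gins1, Rfc4 and Pold2 segments are wider in Eμ-Myc than in WT, those of Orc4, Gins4, Rfc1 and Rpa1 are narrower, and the MCM2-7 bars differ least.

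The 14 genes with an E2F-type match had a median log2 fold change of 1.94 and the 23 in the table without one 1.78, and both sets spanned most of the range, from 0.52 to 3.20 and from 0.17 to 3.35. The 4 genes with the E-box letters had a median of 1.04, from 0.57 to 2.66. For the 33 without them it was 1.83, from 0.17 to 3.35. These differences were not tested.

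The second comparison asks whether loss of PRPS2 changes these genes in B cells with the transgene. No member was called in the knockout group against Eμ-Myc in limma and none had an unadjusted p under 0.05, while 1 of 12551 genes tested was called (0.00797%, Prps2 itself) and 121 passed 0.05 before adjustment. The members had a median log2 fold change of -0.07, against -0.03 over all genes, with 11 members above 0 and 34 below. No member separated the groups, where 1.53% of all tested genes did in either direction. The 95% intervals were wide in this fit, from a median lower bound of -0.86 to a median upper bound of 0.65, so the missing calls do not show that these genes were equal in the groups.

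The 3 members with the smallest p show the pattern. Rfc3 was 87.7, 116, 104 and 116 in Eμ-Myc libraries 1 to 4 and 54.1, 70.0, 123 and 124 in knockout libraries 1 to 4. Knockout libraries 1 and 2 lay below all of Eμ-Myc and libraries 3 and 4 above all of it, and the log2 fold change was -0.27 (95% interval -0.91 to 0.38, adjusted p 1.00). Prim1 was 109, 127, 134 and 142 in Eμ-Myc and 63.0, 79.0, 164 and 167 in the knockout group, with the same split. Its log2 fold change was -0.24 (95% interval -0.99 to 0.52, adjusted p 1.00). Orc4 was 102, 97.6, 103 and 105 in Eμ-Myc and 89.2, 109, 118 and 123 in the knockout group, with only knockout library 1 below Eμ-Myc. Its interval was the narrowest of the 3, at 0.10 (95% interval -0.19 to 0.39, adjusted p 1.00).

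That split ran through the whole machinery. For all 45 genes knockout libraries 3 and 4 were both above knockout libraries 1 and 2, an order seen in 46.0% of the 12551 genes, and for all 45 they were above every Eμ-Myc library, against 32.5% of genes. Knockout libraries 1 and 2 were both below every Eμ-Myc library for 39 of 45 genes, against 26.0% of genes, with Orc2, Orc4, Pola1, Pole, Rfc1 and Wdhd1 the exceptions. For 37 of 45 they lay between WT and Eμ-Myc, against 14.3% of genes. This order was noticed in the values and is a description with no test.

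Measured from the Eμ-Myc mean, the median member stood at -0.89, -0.50, 0.51 and 0.50 on the log2 scale in knockout libraries 1 to 4. The 3829 other genes that were called higher in Eμ-Myc than in WT stood at -0.52, -0.31, 0.40 and 0.36, in the same order. Most of these 3829 genes showed the split too. In knockout libraries 3 and 4, 81.3% and 77.3% of them were above every Eμ-Myc library, beside 100% of members in each. In knockout libraries 1 and 2, 88.9% and 69.5% were below every Eμ-Myc library, beside 100% and 86.7% of members. Within a group, the highest library exceeded the lowest by a median of 1.26-fold in WT, 1.31-fold in Eμ-Myc and 2.68-fold in the knockout group. Orc1 had the widest knockout range at 4.48-fold (5.18, 8.61, 23.2 and 22.0), and Orc4 the narrowest at 1.38-fold. Cdc6 was 79.0, 101, 207 and 202 in knockout libraries 1 to 4, Mcm3 142, 185, 372 and 358, Gins1 54.7, 75.9, 213 and 198, and Lig1 255, 338, 705 and 710.

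Other measures moved with this split in the same libraries. The 12 G2 and mitosis genes summed to 726, 1104, 2493 and 2402 in knockout libraries 1 to 4, and Myc was lowest in library 1 and highest in library 4. The NK cell markers summed to 577, 442, 25.4 and 22.2, and the 9 myeloid markers to 15779, 11739, 3065 and 1375. The 7 early B cell genes summed to 127, 142, 38.6 and 35.1, and the 5 plasma cell genes to 492, 594, 245 and 274, of which Jchain gave 184, 234, 2.00 and 2.44. The plasma cell genes Xbp1 and Prdm1 were lower in libraries 3 and 4, as Jchain was. Sdc1 and Irf4 were higher there, at 6.80, 7.78, 12.3 and 10.1 and at 113, 136, 139 and 168. Most of the early B cell sum in libraries 1 and 2 was Il7r, which T cells also express, at 84.9, 99.7, 7.66 and 5.99, and Rag1 was 22.0, 27.6, 8.44 and 10.2. Igll1 was higher in libraries 3 and 4, at 4.26, 2.70, 4.77 and 4.55, and Rag2, Dntt and Vpreb1 did not follow the split. Cd3e, a defining T cell gene, was 48.5, 71.8, 0.555 and 0.666, while no T cell marker was at 0 in all libraries. The B cell markers summed to between 7189 and 7812 in the knockout group, but single markers moved with the split in both directions. Cd22 was 815, 795, 475 and 473 and Blk 215, 201, 136 and 144, while Ebf1 was 658, 788, 859 and 980. The part of these measures in the replication gene values was not tested.

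**Figure D4:**
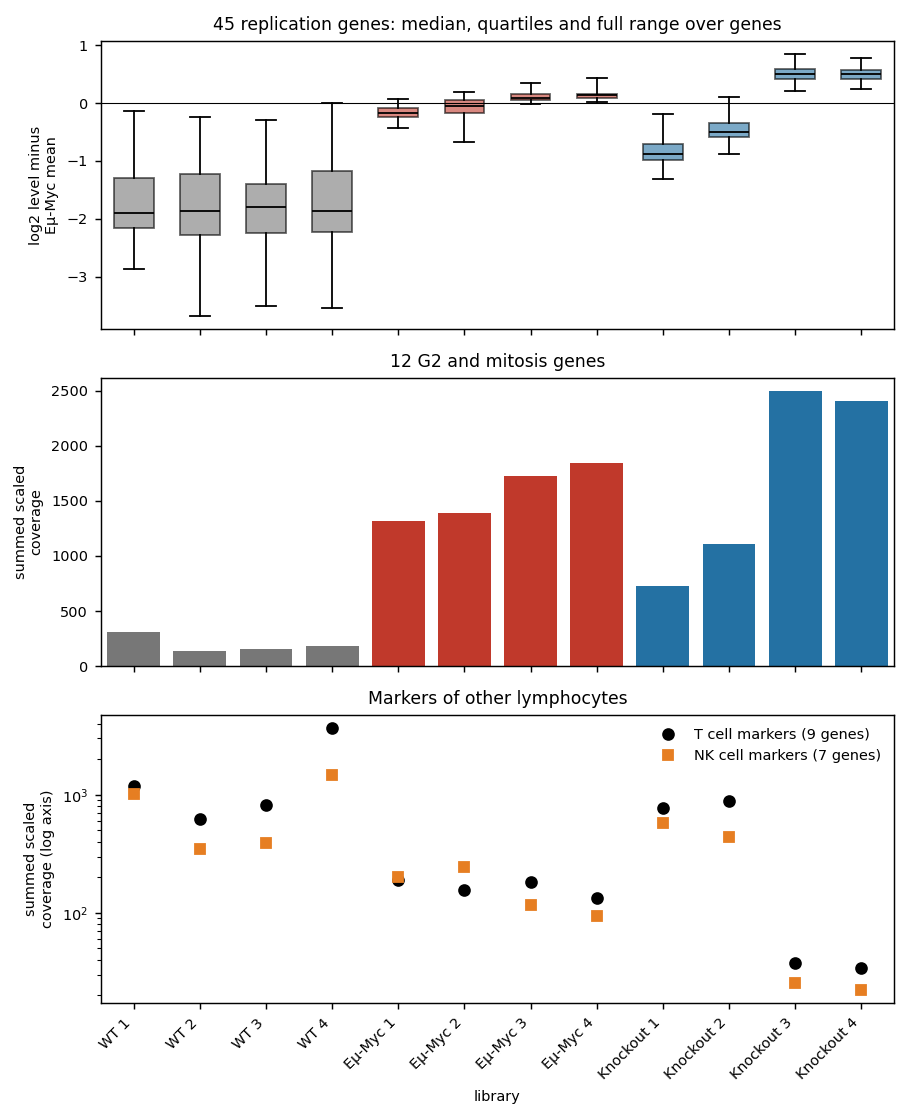
For each of the 12 libraries, the top panel gives the log2 level of the 45 replication genes minus the Eμ-Myc mean (box for median and quartiles over genes, whiskers for the full range), the middle panel the summed scaled coverage of 12 G2 and mitosis genes, and the bottom panel the summed markers of T and NK cells on a log axis. Knockout libraries 1 and 2 have medians of -0.89 and -0.50 with T cell sums of 772 and 888, and libraries 3 and 4 have medians of 0.51 and 0.50 with sums of 37.7 and 34.3.

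The result of this comparison depended on how the knockout libraries were weighted. With library quality weights from limma, which gave knockout libraries 1 to 4 weights of 0.0817, 0.129, 3.2 and 7.76, 44 members were called higher, and so were 3910 of all genes tested (31.2%), with 7460 called in either direction. Rfc3 then stood at 0.22 (adjusted p 0.0730), Prim1 at 0.31 (adjusted p 0.0317) and Orc4 at 0.23 (adjusted p 0.00472), while the other alternatives gave these 3 adjusted p values from 0.802 to 1.00. Leaving out 1 knockout library at a time called no member, but moved their median from -0.28 without library 3 and -0.26 without library 4 to 0.05 without library 2 and 0.17 without library 1. Blocking by replicate number called no member either.

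The third comparison sets the knockout group against WT, and so shares the WT libraries with the first comparison and the knockout libraries with the second. In it 40 of 45 genes were called higher and none lower, against 19.7% of the 12692 tested genes called higher and 9.60% called lower. All knockout libraries lay above all WT libraries for 41 genes, where 22.2% of all tested genes had that order. The median log2 fold change was 1.75, beside 1.83 for Eμ-Myc against WT. The 5 genes that did not pass were Orc3 at 0.58, Orc4 at 0.27, Orc5 at 0.69, Rfc1 at 0.59 and Rpa1 at 0.66, with limma adjusted p of 0.0543, 0.144, 0.0688, 0.0657 and 0.0647. Orc3 and Orc5 are named here after their values were seen. All 12 G2 and mitosis genes were called higher as well, with a median log2 fold change of 2.99, and so were 4 of 6 early B cell genes tested. Among those, Rag2, Vpreb1 and Igll1 had the low WT levels given above. All 9 T cell markers had values below 0, with a median of -3.20, of which none was called and 5 had an unadjusted p under 0.05. The part of these genes in the result was not tested.

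Cdc6 had a log2 fold change of 3.06 (SE 0.37, adjusted p 0.00933) against WT in the knockout group and 3.20 in Eμ-Myc. The corresponding values for the ligase gene Lig1 were 2.52 (SE 0.34, adjusted p 0.00991) and 2.66, and for the helicase gene Mcm3 1.95 (SE 0.31, adjusted p 0.0106) and 2.09. The standard errors against WT were larger with the knockout group than with Eμ-Myc for these 3 genes, at 0.37, 0.34 and 0.31 beside 0.20, 0.10 and 0.09. Of the 20 members named by the rule, Cdc6, Mcm3, Mcm4, Gins1, Prim1, Pola1, Lig1 and Tipin kept the call in every alternative in which they were tested (Pola1 failed the filter of 10 in every library), and 9 others lost it in at least 1.

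The count against WT moved with single libraries, as did calls over all genes. It was 24, 21, 20 and 27 without WT library 1, 2, 3 or 4, where 5.95%, 4.60%, 4.47% and 8.11% of all tested genes were called higher. It was 25 and 23 without knockout library 3 or 4, beside 5.12% and 4.66% of all genes. It was 45 and 41 without knockout library 1 or 2, beside 29.6% and 19.7%. Blocking by replicate number gave 34, beside 11.3% of all genes, with the calls of Cdt1, Gins4, Pold1, Pold3, Rfc2 and Rpa3 lost. Fitting all 12 libraries at once gave 44, beside 27.2%.

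Within complexes the mean shares of the knockout group were nearer to Eμ-Myc than to WT for the subunits that had shifted most. Gins1 held 40.6% ± 5.79 of GINS coverage in the knockout group, beside 42.7% in Eμ-Myc and 20.4% in WT. Orc6 held 32.8%, 32.9%, 41.8% and 41.1% of ORC coverage in knockout libraries 1 to 4, and Orc4 held 22.5%, 22.6%, 12.6% and 13.5%. Knockout libraries 1 and 2 thus lay between WT and Eμ-Myc in both shares. These shares of the knockout group were not tested.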

How the data were processed

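Groups follow the genotype label of each of the 12 libraries. Per the labels, polyadenylated RNA was purified after TRIzol lysis and made into directional libraries. The authors deposited 1 file per library with a coverage signal for each gene, of which 91.24% to 92.08% of values above 0 were not whole. The submitters' processing notes name mm10, DESeq and R 4.3.3, with no role. The aligner, the counting step and the annotation are not given in the sources used here. Depth is therefore unknown, no counting interval can be given, and precision was taken from the spread between libraries.

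Libraries were scaled by an unweighted trimmed mean of log ratios (trims at each end of 30% for ratios and 5% for mean values). Genes that reached a scaled coverage of 1 in 4 or more of the 8 compared libraries were fitted in limma 3.58.1 (R 4.3.3) on log2(scaled coverage + 0.5), robust empirical Bayes with trend, two-sided, with Benjamini-Hochberg adjustment over all genes tested. The fit was tested on simulated data. Python 3.11.15, numpy 2.4.6, pandas 2.3.3 and matplotlib 3.10.9 made the tables and figures.

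The 45 members, the other gene lists and the tests were chosen with earlier results of these data known. Named in full were, in each of 10 role groups, the members whose adjusted p for Eμ-Myc against WT was smallest and largest, and the 3 members of smallest p when the knockout group was set against Eμ-Myc. Of the other replication genes, the 3 with the smallest adjusted p and any called lower in Eμ-Myc were named. Donson was not called and is given as description. Values of further members are given as description. Promoter sequences were shown by a rule on the same adjusted p.

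Alternatives were scaling by total coverage or by the median of ratios, dropping the filter or raising it to 10 for each library, pseudocounts of 0.1 and 2, all 12 libraries in 1 fit, a replicate block, library quality weights, and leaving out each library. The labels call the libraries biological replicates and number them 1 to 4 in each group, without saying what a number shares. For the knockout group and Eμ-Myc, the departures of libraries 1 to 4 from the mean of their group were compared number by number across genes, which gave correlations of 0.657, 0.192, 0.253 and 0.607. Each exceeded 0.1, and the numbers were taken as pairs in the blocked fit of that comparison. This pairing comes from the values alone. Libraries of unlike number also correlated, at 0.605 for knockout library 2 with Eμ-Myc library 1 and 0.601 for knockout library 3 with Eμ-Myc library 4. The values therefore do not single out the number as what is shared. In the other comparisons at least 1 pair was below 0.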

Additional observations from a re-analysis of the deposited data

Results flagged for a closer look

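Sets of 4 libraries (45 genes in 3 groups) were searched for 1 library far from its nearest neighbour. In 9 of 135 sets the gap passed Dixon's 95% critical value for the ratio of gap to range. Chance alone gives about 1 in 20 if sets are independent, which genes of the same libraries are not. The 9 fell on Eμ-Myc library 1 in 5 genes, WT library 1 in 3 and WT library 4 in 1. None was in the knockout group, where libraries 3 and 4 lay above 1 and 2 for all 45 genes. A single library can hardly be flagged in such a set. Eμ-Myc library 1 was low for Cdt1 (90.0, the others 105 to 107), Gins1 (110, the others 144 to 148), Pold2 (246, the others 319 to 327), Rfc4 (115, the others 162 to 165) and Rpa3 (155, the others 228 to 236). WT library 1 was high for Mcm10 (12.5, the others 7.60 to 8.06), Cdc45 (44.4, the others 26.6 to 28.5) and Lig1 (89.0, the others 75.1 to 76.7). WT library 4 was high for Orc2 (72.0, the others 60.5 to 61.8). All 9 genes were called higher in Eμ-Myc with and without each of these libraries.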

How the results depend on the processing

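In Eμ-Myc against WT the count of members called higher was 44 under each left-out library, beside 26.3% to 30.4% of all genes. Elsewhere it ran from 37 of 38 tested (filter of 10 in every library, 36.0% of all genes) to 45 (library quality weights, 36.4%). The share in the main fit was 30.4%. Of the 20 named members, 18 kept call and direction in every alternative in which they were tested, and Pola1 among them failed the filter of 10 in every library. Orc4 changed sign under total coverage scaling (-0.02), and Rfc1 lost its call there (0.39, limma adjusted p 0.0885). The cause was not tested. For the knockout group set against Eμ-Myc the count was 0 except for 44 with library quality weights (31.2% of all genes), and leaving out 1 library gave 0 throughout. Rfc3 turned to 0.22 and Prim1 to 0.31 with those weights, and Prim1 ranged from -0.44 to 0.02 with 1 library left out, the latter without knockout library 1. In the knockout group against WT the count ran from 20 to 45 when 1 library was left out, beside 4.47% to 29.6% of all genes called higher. It was 37 without a filter, beside 12.1%, and 34 of 38 with the strict filter, beside 26.4%. The share in the main fit was 19.7%. Fewer libraries were fitted when 1 was left out, and the cause was otherwise not tested.

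The replicate block left 44 members called in Eμ-Myc against WT (30.7% of all genes called higher) and 0 between the knockout group and Eμ-Myc. It gave 34 instead of 40 in the knockout group against WT (11.3% of all genes instead of 19.7%). It changed no other call of a named member than those of Cdt1 (0.92, adjusted p 0.0636) and Pold1 (1.00, adjusted p 0.0622) in that last comparison. Best correlation with the own number was seen in 4 of 8 libraries, 4 of 8 and 2 of 8 in the 3 comparisons in the order above, as a hint from the data only.

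Depth is unknown, so the share of the spread that comes from counting cannot be given, and genes of low coverage such as Orc1 and Pole in WT carry the least signal.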

Other observations

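The split of the knockout libraries held under other scalings. Libraries 3 and 4 were above every Eμ-Myc library for 45 members under median-of-ratios scaling and 44 under total coverage scaling, and libraries 1 and 2 were below every Eμ-Myc library for 39 and 32 members. Within Eμ-Myc the median member of library 1 stood at -0.23 on the log2 scale from the mean of the other 3 libraries, that of library 2 at -0.07, that of library 3 at 0.12 and that of library 4 at 0.18. Eμ-Myc library 1 was the lowest of its group for 30 of 45 members and library 4 the highest for 29. This order within Eμ-Myc depended on the scaling: under total coverage library 1 was lowest for 18 members (median -0.11) and library 2 for 27 (median -0.21).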
